A study of Mus musculus with 2 samples.

Results

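Lyve1, Stab1, Stab2, Mrc1, Fcgr2b and Scarb1 encode endocytic and scavenger receptors of endothelial cells and macrophages, and their rows were read in every cell of the series. The 6 genes were chosen by name among the 23154 genes of the count tables, of which 13206 had a count. No measured value entered the rule, but earlier results of these data were known when the genes were chosen. The cells were sorted as CD41-CD43-CD45-CD31+CD201+Kit+CD44+, abbreviated PK44, from the E10.0 yolk sac of mice on the C57BL/6 background, an immunophenotype that the study used to capture hemogenic endothelial cells. They formed a single group, without treatment or mutation, in 2 libraries made by modified STRT-seq, with 43 cells in replicate 1 and 44 cells in replicate 2. Nothing in the labels states whether the libraries came from separate litters, so the spread between them may be technical.

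Scavenger receptors take up modified proteins, lipoproteins, glycans and spent matrix from blood and tissue fluid. Lyve1 encodes a hyaluronan receptor known from lymphatic endothelium, and it is also expressed by yolk sac and liver sinusoidal endothelium and by some macrophages. Stab1 and Stab2 encode stabilin-1 and stabilin-2, large clearance receptors of sinusoidal endothelium, of which stabilin-2 also takes up hyaluronan. Mrc1 encodes the mannose receptor CD206, Fcgr2b an inhibitory Fc receptor of immune cells and liver sinusoidal endothelium, and Scarb1 the high-density lipoprotein receptor SR-BI. Runx1, the transcription factor required for the endothelial-to-hematopoietic transition, and Gja5, the arterial gap junction gene connexin 40, were the genes against which the receptors were set.

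On GRCm38 (mm10; GENCODE M21) all 6 receptor genes are annotated as protein coding. Lyve1 lies at chr7:110850607-110863239 on the minus strand and overlaps no other annotated gene. Stab1 (chr14:31139013-31168641, minus strand) overlaps Nt5dc2, and Stab2 (chr10:86841198-87008025, minus strand) overlaps 5 antisense or pseudogene entries. Mrc1 (chr2:14229392-14332057, plus strand) contains the microRNA gene Mir511. Scarb1 (chr5:125277087-125341094, minus strand) and Fcgr2b (chr1:170958617-170976547, minus strand) each overlap 1 noncoding or unverified entry. Whether the counting used strand is not given in the sources used here, so counts of the 5 overlapping genes could include reads of a partner.

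Bases upstream of the annotated starts of the stabilins and Mrc1 are shown because the summed counts of these receptors were lower in Runx1-high than in Runx1-low cells in both libraries, as described below. RefSeq promoter windows (250 bases before to 50 after a start, GRCm38.p6) were matched for 4 of the 6 genes, and 3 had bases that lay before both the RefSeq and the GENCODE start. Capitals mark matches on either strand to 1 of 5 short patterns searched. These were AGGAAG for ETS factors, TGCTGA for MAF factors, TGTGGT for RUNX factors, AGATAA for GATA factors and TGGGAA for the Notch effector RBPJ, with no pattern overlapping another in these stretches. The regions are chr14:31168642-31168891 for Stab1 and chr10:87008026-87008192 for Stab2, both on the minus strand, and chr2:14229164-14229391 for Mrc1 on the plus strand.
Stab1: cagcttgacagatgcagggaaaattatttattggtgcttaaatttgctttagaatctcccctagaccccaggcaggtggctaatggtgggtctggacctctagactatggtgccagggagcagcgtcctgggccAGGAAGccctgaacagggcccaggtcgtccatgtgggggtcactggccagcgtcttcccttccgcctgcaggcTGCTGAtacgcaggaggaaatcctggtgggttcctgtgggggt
Stab2: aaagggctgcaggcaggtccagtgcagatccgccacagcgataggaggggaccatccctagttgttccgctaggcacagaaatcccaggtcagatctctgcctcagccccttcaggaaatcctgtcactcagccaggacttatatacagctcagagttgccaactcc
Mrc1: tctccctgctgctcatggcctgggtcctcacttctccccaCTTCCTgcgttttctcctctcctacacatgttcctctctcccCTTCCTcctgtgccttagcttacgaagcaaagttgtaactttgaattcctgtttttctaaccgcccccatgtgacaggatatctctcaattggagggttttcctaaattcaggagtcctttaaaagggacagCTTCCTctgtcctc
The Stab1 stretch held 1 ETS match at -116 and 1 MAF match at -43, and the Mrc1 stretch held 3 ETS matches at -188, -146 and -14, counted from the annotated start. The Stab2 stretch held none of the patterns, and its window of full length held 1 ETS and 1 RUNX match after the GENCODE start. Of all 32851 windows, 35.4% held the ETS letters, 19.5% the MAF letters, 16.8% the RUNX letters, 25.6% the RBPJ letters and 11.2% the GATA letters, so that each is common, and a match is a description of the letters only.

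The depth behind these values was 8932527 counts in replicate 1, with a median of 141577 per cell (13218 to 702028), and 12706360 counts in replicate 2, with a median of 238898.5 (51620 to 956593). No cell barcode was shared by the libraries. All 8 endothelial markers had counts in both libraries, and every cell had a count of at least 1 of them. Of 17 macrophage and myeloid markers, Mrc1 not counted, 9 had no count in each library, among them Adgre1, Cx3cr1, C1qa, C1qb, C1qc and Mpeg1 in both. The others summed to 197 CPM in replicate 1 and 222 CPM in replicate 2. A count of at least 1 of them was present in 37 of 43 and 37 of 44 cells. At least 3 of the myeloid markers reached 10 counts in 5 cells (1 and 4 by library), and 3 cells (2 and 1) held at least 100 counts of each of 3 collagen genes. Results below were also computed without these cells.

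Lyve1 was the most abundant of the receptors, at 813 ± 125 CPM, the counts scaled to 1e6 per summed library (SD, n = 2 libraries), and it ranked 161 of all genes. The labels describe enrichment of cDNA 3′ ends, and counts were not divided by transcript length. In replicate 1 Lyve1 ran from 0 to 8966 CPM per cell with a median of 107 CPM, and in replicate 2 from 3.66 to 4910 CPM with a median of 483 CPM. The distribution was broad in both, with 14 of 43 and 19 of 44 cells above 1000 CPM and 20 of 43 and 8 of 44 cells below 10 counts. Lyve1 was detected in 39 of the 43 cells (90.7%, exact Clopper-Pearson 95% interval 77.9 to 97.4%) and in all 44 of the other library (100%, 92.0 to 100%). These intervals cover counting error only.

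Stab2 and Stab1 followed at 256 ± 200 and 221 ± 97.9 CPM (SD, n = 2 libraries). The sums of replicates 1 and 2 held 114 and 397 CPM of Stab2. Its cells ran from 0 to 2071 CPM (median 7.06) and from 0 to 4118 CPM (median 90.9). In replicate 1 only 9 cells had 10 or more counts of Stab2 and 3 cells held 50.4% of them, so the level of that library rests on few cells. For each other receptor with counts, its 3 highest cells there held 47.9% (Lyve1), 44.7% (Stab1), 48.3% (Mrc1) and 66.1% (Scarb1). Stab1 stood at 152 and 291 CPM of the sums, with cells from 0 to 2280 CPM (median 12.2) in replicate 1 and from 10.7 to 1268 CPM (median 235) in replicate 2. In replicate 2 Stab1 had a count in every cell.

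Mrc1 reached 144 ± 26.2 CPM (SD, n = 2 libraries), at 125 and 162 CPM. Its cells ran from 0 to 2204 CPM with a median of 6.20 in replicate 1 and from 0 to 1606 CPM with a median of 76.1 in replicate 2. Scarb1 was the lowest receptor with counts, at 62.2 ± 32.9 CPM, with the median cell at 0 and 30.7 CPM in the replicates and the highest cell at 474 CPM. The order of the mean levels was Lyve1, Stab2, Stab1, Mrc1 and Scarb1. Lyve1 was above Stab2, and Mrc1 above Scarb1, in both libraries without overlap of their values. Stab2 against Stab1 and Stab1 against Mrc1 overlapped, and in replicate 1 the order of Stab2 and Stab1 was the opposite of that in replicate 2.

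Fcgr2b had no count in any cell of either library. That is 0 of 87 cells, which allows a share of cells with a count of up to 3.45% when the limit is set at 3 cells, or up to 4.15% by the exact Clopper-Pearson 95% interval. On the summed counts the limit of 3 counts over both libraries is 0.139 CPM. None of 15 housekeeping genes examined was at 0.

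**Figure D1:**
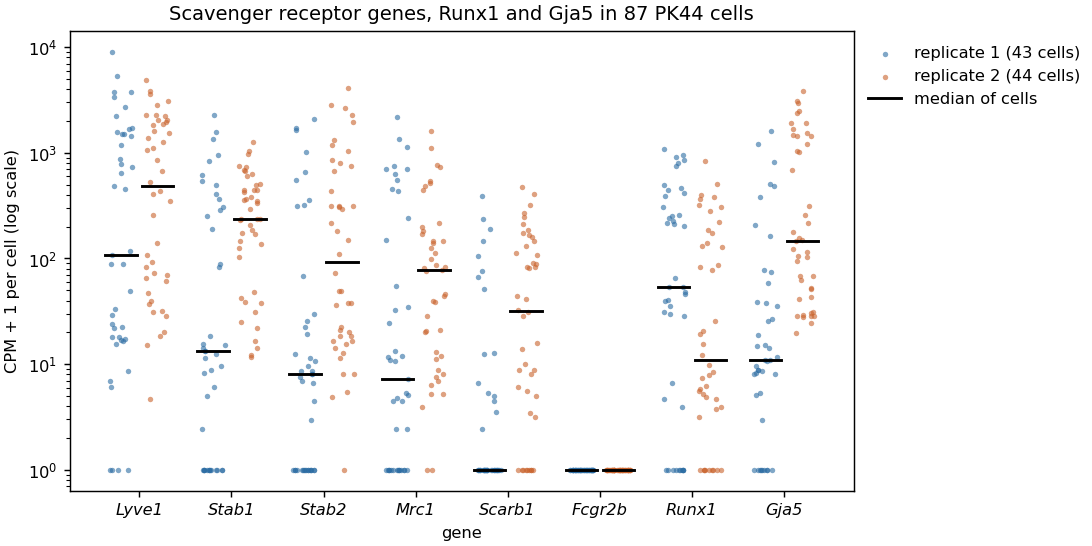
CPM + 1 on a log axis for each of the 43 cells of replicate 1 and 44 cells of replicate 2, with a black bar at the median of the cells. Lyve1 is highest among the receptors, the medians of Lyve1, Stab1, Stab2, Mrc1 and Scarb1 are higher in replicate 2, and Fcgr2b is at 0 CPM in all 87 cells.

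The libraries were compared by the log2 ratio of replicate 2 over replicate 1 (CPM of the sums + 1). With 1 library on each side there is no test. Stab2 was higher in replicate 2 by 1.79 and Scarb1 by 1.11, past a 2-fold difference, while Stab1 was higher by 0.93, Mrc1 by 0.37 and Lyve1 by 0.32. So 2 of 5 receptors were at least 2-fold higher in replicate 2, and 14.2% of the 8727 genes at 10 CPM or more were. In cells thinned to 20000 counts the log2 ratio was -0.26 for Mrc1, -0.022 for Lyve1 and 0.24 for Stab1, and as a mean over cells it was -0.20 for Mrc1, so the direction turned for Mrc1 in both and for Lyve1 in thinned cells. Gja5 was higher in replicate 2 by 2.27, at 126 and 615 CPM, and Runx1 was lower there by a log2 ratio of -1.13, at 300 and 136 CPM.

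Detection differed with depth. Stab2 was detected in 62.8% of the cells of replicate 1 (27 of 43) and 97.7% of those of replicate 2 (43 of 44). After each cell was thinned to 20000 counts, with 1 shallower cell of replicate 1 left out, the shares were 12 of 42 (28.6%) and 30 of 44 (68.2%). Scarb1 went from 16 of 43 (37.2%) and 35 of 44 (79.5%) to 6 of 42 (14.3%) and 21 of 44 (47.7%). Lyve1 was kept in 27 of 42 (64.3%) and 38 of 44 (86.4%) thinned cells. Every receptor with counts was thus found in a larger share of replicate 2 at equal depth as well.

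In replicate 2 Lyve1, Stab1, Stab2 and Mrc1 tended to be high in the same cells, and Scarb1 stood apart. In replicate 1 this held mainly for pairs with Mrc1 at full depth. Lyve1 with Stab2 and Stab1 with Stab2 lay there within the range of the pairs with Scarb1, -0.03 to 0.08. Spearman's rho over cells among the 6 pairs without Scarb1 had a median of 0.25 in replicate 1 (43 cells, -0.01 to 0.43). In replicate 2 it was 0.52 (44 cells, 0.39 to 0.63). The highest values in replicate 2 were 0.63 for Lyve1 with Stab2 and 0.63 for Stab1 with Stab2. The same pairs were at 0.05 and -0.01 in replicate 1. All cells of a library share their preparation, and depth differs between them, so these values are descriptions.

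Mrc1 had positive values with each of the other 3 in both libraries, with Lyve1 at 0.43 and 0.50, with Stab1 at 0.36 and 0.46 and with Stab2 at 0.33 and 0.55. The 4 pairs with Scarb1 lay between -0.03 and 0.15 in both libraries. In thinned cells Lyve1 with Stab2 was at 0.34 and 0.54 and Stab1 with Stab2 at 0.17 and 0.46, closer to each other than at full depth. Correlation with depth was between -0.28 and 0.17 for Lyve1, Stab1, Stab2 and Mrc1, and for Scarb1 it was 0.43 in replicate 1 and 0.06 in replicate 2.

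**Figure D2:**
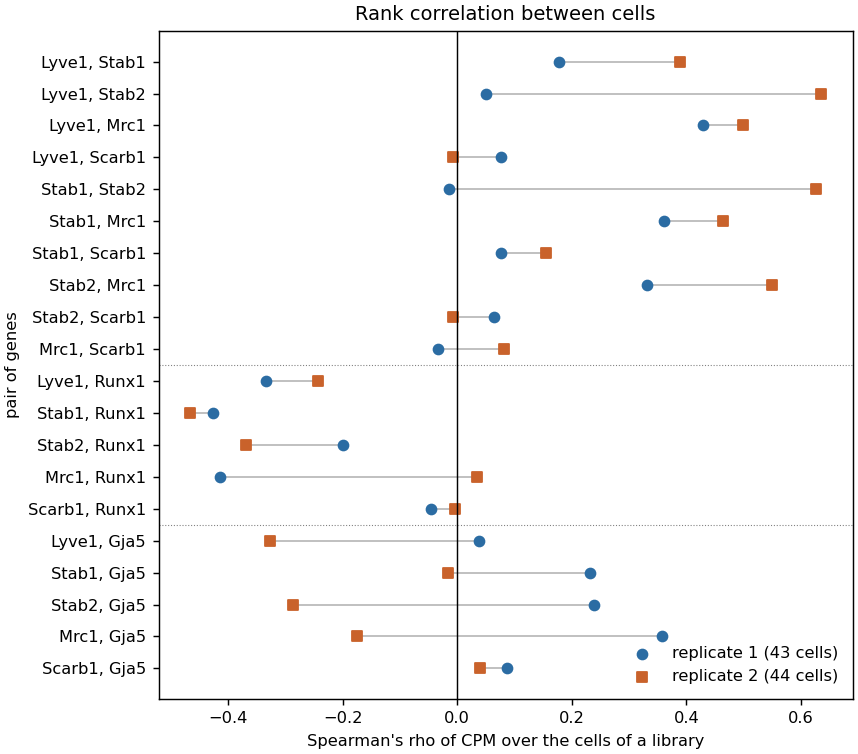
Spearman's rho of CPM between each pair of genes over the 43 cells of replicate 1 (circles) and the 44 cells of replicate 2 (squares), joined by a line per pair. The upper block holds receptor pairs, the next each receptor with Runx1 and the last with Gja5. Stab1 with Runx1 is negative in both libraries, while Lyve1, Stab2 and Mrc1 with Gja5 are positive in replicate 1 and negative in replicate 2.

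Cells were also counted by whether a gene had 10 or more counts. All of Lyve1, Stab1, Stab2 and Mrc1 reached that level in 3 of 43 and 17 of 44 cells of the replicates, and none of them did in 13 and 1 cells. Lyve1 and Stab2 were both at 10 or more counts in 7 of the 9 Stab2 cells of replicate 1 and in 24 of the 26 of replicate 2. Over all cells Lyve1 reached that level in 23 of 43 and 36 of 44, so in replicate 2 it was common whether or not Stab2 was high. Of the Lyve1 cells, 16 of 23 in replicate 1 and 12 of 36 in replicate 2 were below 10 counts of Stab2. The 13 cells of replicate 1 with none of the receptors at that level had a median Runx1 level of 414 CPM, and the 3 cells with all of them had 27.8 CPM.

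**Figure D3:**
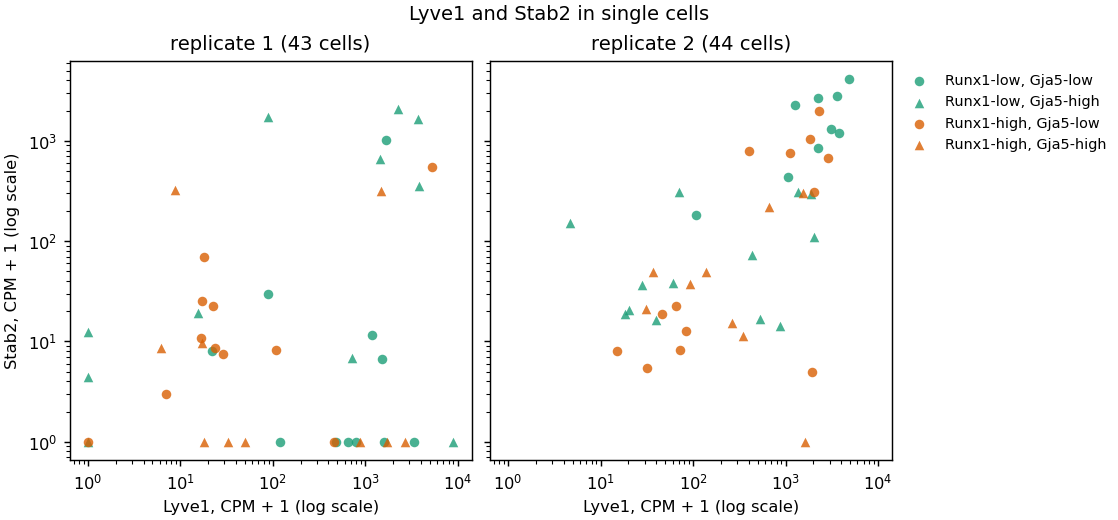
Stab2 against Lyve1 as CPM + 1 on log axes in each cell of replicate 1 (left) and replicate 2 (right), with colour for Runx1-high or Runx1-low and shape for Gja5-high or Gja5-low cells. In replicate 2 the 9 Runx1-low, Gja5-low cells sit at the upper right for the most part, and in replicate 1 several cells above 1000 CPM of Lyve1 have no count of Stab2.

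The genes most like each receptor were taken as the 5 with the highest value of the lower of the 2 libraries' rho, among 3660 genes with a count in at least 50% of the cells of each library. For Lyve1 these were Maf (0.48 in replicate 1 and 0.56 in replicate 2), Add3, Mrc1, Degs1 and Limk2. Maf encodes a transcription factor of sinusoidal and lymphatic endothelium and of macrophages. Mrc1 was most like Maf (0.43 and 0.54), then Lyve1, Degs1, Ets2 and Oit3, a gene known from liver sinusoidal endothelium. For Stab2 they were Raph1 (0.43 and 0.52), Igf1, Ets2, Maf (0.36 and 0.70) and Dab2, an endocytic adaptor. Stab1 had other neighbours, Cldn5 (0.48 and 0.47), Plvap, Tcn2, Npr1 and Kdr, of which Cldn5 (a tight junction gene), Plvap (fenestral diaphragms) and Kdr (the VEGF receptor) are general endothelial genes. Maf was among the 5 for Lyve1, Stab2 and Mrc1, and for Stab1 Mrc1 was at rank 11. Pairs without Mrc1 ranked lower at full depth. For Lyve1, Stab1 was at rank 73 and Stab2 at rank 393. For Stab1, Lyve1 was at rank 158 and Stab2 at rank 972. For Stab2, Lyve1 was at rank 497 and Stab1 at rank 917. Scarb1 had counts in too few cells of replicate 1 for this rule. In thinned cells Maf kept ranks 1, 3 and 5 for Lyve1, Stab2 and Mrc1. Others fell, with Add3 at rank 21 and Limk2 at rank 28 for Lyve1, Igf1 at rank 61 for Stab2, Ets2 at rank 42 for Mrc1 and Npr1 at rank 10 for Stab1. For Stab1, Mrc1 fell to rank 24. Pairs without Mrc1 rose in thinned cells, and Lyve1 and Stab2 were each at rank 10 for the other. Stab1 was there at rank 22 for Lyve1 and at rank 92 for Stab2. For Stab1, thinned Lyve1 was at rank 28 and thinned Stab2 at rank 168.

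To ask how the receptors relate to Runx1, the cells of each library were split at its median Runx1 level. Counts were summed per library and class. The cut lay at 52.2 CPM of Runx1 in replicate 1 and at 10.03 CPM in replicate 2, so the classes stand for different Runx1 levels. Runx1-low cells of replicate 1 reached 52.2 CPM, while Runx1-high cells of replicate 2 began at 11.2 CPM. Of the Runx1-high cells, 20 of 21 in replicate 1 and 17 of 22 in replicate 2 had 10 or more counts of Runx1. The sums of all 5 receptors with counts were lower in Runx1-high than in Runx1-low cells in both libraries. The median cell went the other way for Stab2 in replicate 1 (7.12 CPM in Runx1-high and 6.48 CPM in Runx1-low cells) and for Mrc1 in replicate 2 (78.5 and 76.1 CPM). Stab1 was at 362 CPM in the 22 Runx1-low cells and 36.6 CPM in the 21 Runx1-high cells of replicate 1, and at 455 and 180 CPM in the 22 and 22 cells of replicate 2. The sums of both Runx1-low classes lay above both Runx1-high sums for 5 of 5 receptors, which was also so for 17.1% of the 10629 genes tested.

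Lyve1 was at 1308 CPM in Runx1-low and 404 CPM in Runx1-high cells of replicate 1, and at 1155 and 732 CPM in replicate 2. Stab2 was at 234 and 48.4 CPM in replicate 1, and at 645 and 230 CPM in replicate 2. For Lyve1 the gap between the classes was wide, and for Stab2 the Runx1-low sum of replicate 1 was just above the Runx1-high sum of replicate 2. Mrc1 was at 289 and 34.9 CPM in replicate 1 but at 189 and 145 CPM in replicate 2, so that most of its difference lay in replicate 1. Scarb1 was at 76.0 and 18.6 CPM in replicate 1 and at 113 and 66.7 CPM in replicate 2, with a median cell at 0 CPM in both classes of replicate 1.

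The test was edgeR's quasi-likelihood test on these 4 sums with Benjamini-Hochberg adjustment over all genes. Without the library in the fit it called 0 of 5 receptors and 1 of 10629 genes (0.00941%), with an adjusted p of 0.79 for Stab1 and Lyve1, 0.88 for Stab2 and Mrc1 and 0.97 for Scarb1. At an unadjusted p under 0.05, 3 of 5 receptors (Stab1, Lyve1 and Stab2) were lower, against 3.59% of all genes. The sums of a library pair by construction, and with the library as a block 4 of 5 receptors were called lower, against 126 of 10629 genes lower (1.19%) and 40 higher (0.376%). The log2 difference was -2.34 for Stab1 (SE 0.41, adjusted p = 1.0e-05), -1.91 for Stab2 (SE 0.38, adjusted p = 0.00018), -1.21 for Lyve1 (SE 0.29, adjusted p = 0.0037) and -1.74 for Mrc1 (SE 0.50, adjusted p = 0.035). For Scarb1 the log2 difference was -1.42 (SE 0.72, adjusted p = 0.57). That fit leaves 1 residual degree of freedom and takes its spread mostly from the other genes.

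These calls did not hold under every setting. Thinned cells were split anew by their thinned Runx1 level, into 19 high and 23 low cells in replicate 1 and 17 and 27 in replicate 2. In replicate 2 only 17 of 44 thinned cells had a count of Runx1. The sums of thinned cells held 340000 to 540000 counts, so thinning changed the classes and the power as well as the depth. With cells thinned to 20000 counts and the library as a block, 0 of 5 receptors passed edgeR's test, against 4 of 6793 genes lower (0.0589%). Of the receptors 4 of 5 were lower at an unadjusted p under 0.05, against 5.05% of those genes, and all 5 log2 differences stayed negative. DESeq2 called 0 of 5 without the block, against 109 of 9876 genes lower (1.1%). With the block it called 3 of 5, against 224 of 9620 genes lower (2.33%), and Mrc1 had an adjusted p of 0.083. Within the libraries the log2 ratios of Runx1-high over Runx1-low sums were -3.34 and -1.33 for Stab1, -2.31 and -1.48 for Stab2, -1.75 and -0.66 for Lyve1, -3.09 and -0.38 for Mrc1 and -2.06 and -0.76 for Scarb1. Each was larger in replicate 1. Runx1-high cells were also deeper, and their median depths were 260240 and 271733.5 counts in the replicates, those of Runx1-low cells 95376 and 213444.

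Markers of other kinds moved with the same split. The 8 endothelial markers summed to 1603 CPM in Runx1-high and 3372 CPM in Runx1-low cells of replicate 1, and to 2697 and 4681 CPM in replicate 2, and all 8 had a negative log2 difference with a median of -0.78. Of the 17 macrophage and myeloid markers 6 were abundant enough to test, and all 6 had a positive difference, with sums of 238 and 122 CPM in replicate 1 and 324 and 69.8 CPM in replicate 2. The 6 mesenchymal markers summed to 48.4 and 2268 CPM in replicate 1 and to 23.4 and 788 CPM in replicate 2, and without the 3 collagen-rich cells 2 of 4 tested were positive and 2 negative. The part of these genes and of depth in the receptor differences was not tested. Without the collagen-rich cells the blocked test called 4 of 5 receptors, against 117 of 10496 genes lower (1.11%). Without the 5 myeloid-marked cells it also called 4 of 5, against 108 of 10521 genes lower (1.03%).

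Cells were also ordered into lower, middle and upper sets of 14 to 16 cells by Runx1. In replicate 1 Stab1 went from 425 over 122 to 28.3 CPM, Lyve1 from 1515 over 656 to 350 CPM and Mrc1 from 336 over 136 to 2.62 CPM. These fell along the whole range. In replicate 2 the lower and middle sets were alike for Stab1 (406 and 417 CPM) and Stab2 (591 and 600 CPM), Lyve1 was highest in the middle set (1081, 1611 and 352 CPM), and the upper set was the lowest for each. As rank correlations with Runx1 over cells, Stab1 was at -0.43 and -0.47, Lyve1 at -0.33 and -0.24, Stab2 at -0.20 and -0.37, Mrc1 at -0.41 and 0.04 and Scarb1 at -0.05 and -0.0043 in replicates 1 and 2.

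**Figure D4:**
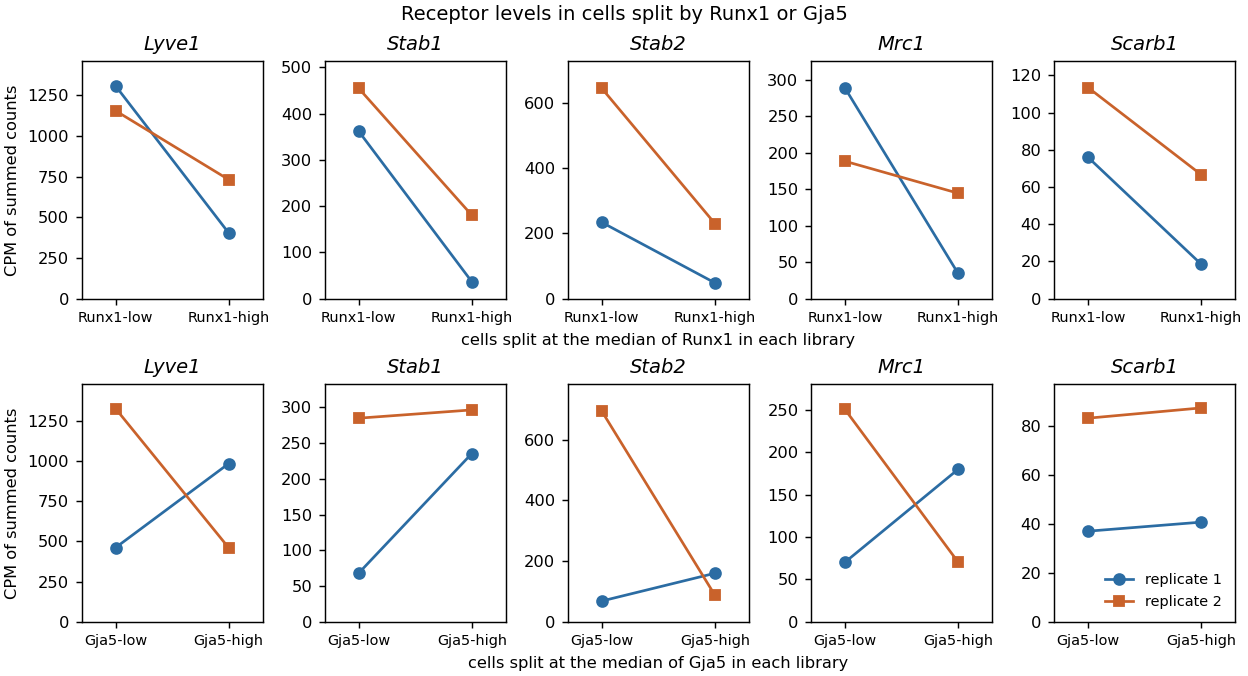
CPM of the summed counts of each receptor in cells below (low) and above (high) the library's median of Runx1 (top row) or Gja5 (bottom row), with a line per library. All 5 receptors are lower in Runx1-high cells of both libraries, whereas Lyve1, Stab2 and Mrc1 are higher in Gja5-high cells of replicate 1 and lower in those of replicate 2.

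The sums of 3 of the 5 receptors went opposite ways with Gja5 in the libraries. The classes stand for different Gja5 levels. Gja5-high cells of replicate 1 began at 10.6 CPM (median 58.3 CPM), while Gja5-low cells of replicate 2 reached 146 CPM. Of those Gja5-high cells 10 of 21 had 10 or more counts of Gja5, and of those Gja5-low cells 14 of 22. Lyve1 was at 462 CPM in Gja5-low and 985 CPM in Gja5-high cells of replicate 1 but at 1327 and 460 CPM in those of replicate 2. Stab2 was at 68.4 and 160 CPM in replicate 1 and at 694 and 87.6 CPM in replicate 2. Mrc1 was at 70.2 and 180 CPM in replicate 1 and at 251 and 70.6 CPM in replicate 2. These are log2 ratios of high over low sums of 1.05 and -1.52 for Lyve1, 1.18 and -2.97 for Stab2 and 1.31 and -1.82 for Mrc1. In replicate 1 the median Lyve1 cell went the other way, at 112 CPM in Gja5-low and 87.4 CPM in Gja5-high cells. There 12 of 22 and 11 of 21 cells had 10 or more counts of Lyve1, so its sums rest on a few high cells. The median cells of replicate 1 were at 6.80 and 7.67 CPM for Stab2 and at 2.47 and 12.2 CPM for Mrc1. Stab1 was at 68.1 and 235 CPM in replicate 1 and at 285 and 297 CPM in replicate 2, ratios of 1.75 and 0.06. Scarb1 was nearly level, at 37.1 and 40.8 CPM and at 83.4 and 87.6 CPM. Values of the classes overlapped over the libraries for all 5 receptors, whereas 34.4% of the 10653 genes tested had no overlap in one direction or the other.

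The edgeR test called 0 of 5 receptors in the Gja5 comparison, both without the block (0 of 10653 genes, 0%, with 433 at an unadjusted p under 0.05) and with it (85 genes higher, 0.798%, and 9 lower, 0.0845%). With the block the log2 difference was 0.90 (SE 0.37) for Stab1, -0.91 (SE 0.61) for Stab2, -0.23 (SE 0.34) for Lyve1, -0.25 (SE 0.56) for Mrc1 and 0.09 (SE 0.64) for Scarb1, with an adjusted p from 0.47 to 1.00. DESeq2 also called 0 of 5, without the block (88 of 11412 genes, 0.771%) and with it (172 of 10388 genes, 1.66%). In each, 1 of 5 receptors was at an unadjusted p under 0.05, against 895 and 1226 of 13205 genes. The Gja5 level itself differed between libraries, so that the median cell used for the split was at 10.01 CPM in one library and 147 CPM in the other. Split at the median of all 87 cells, the 5 receptors all had positive log2 differences and 0 of 5 were called without the block (0 of 10503 genes). That split gave 11 high and 32 low cells in replicate 1 and 32 and 12 in replicate 2. Without the block it therefore also holds the difference between the libraries.

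Rank correlations with Gja5 over cells had the same opposite signs, 0.04 and -0.33 for Lyve1, 0.24 and -0.29 for Stab2 and 0.36 and -0.17 for Mrc1. Stab1 was at 0.23 and -0.02 and Scarb1 at 0.09 and 0.04. In Gja5-high cells the 8 endothelial markers summed to 3171 against 1284 CPM in replicate 1 and to 4107 against 2903 CPM in replicate 2. The myeloid markers summed to 206 against 188 CPM in replicate 1 and to 101 against 338 CPM in replicate 2, and their part in the receptor values was not tested.

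Taking both splits, the sums of Lyve1, Stab2, Stab1 and Mrc1 were highest in Runx1-low cells, on the Gja5-low side in replicate 2. The 9 Runx1-low, Gja5-low cells of replicate 2 had 2233 CPM of Lyve1, 1633 CPM of Stab2, 529 CPM of Stab1 and 437 CPM of Mrc1, and all 9 had 10 or more counts of Lyve1, Stab1 and Stab2. Next to them the 13 Runx1-low, Gja5-high cells of that library had 556 CPM of Lyve1, 95.1 CPM of Stab2 and 50.3 CPM of Mrc1 but 414 CPM of Stab1. The 13 Runx1-high, Gja5-low cells there were above these for Lyve1 (972 CPM), Stab2 (326 CPM) and Mrc1 (177 CPM). For Stab1 they were below, at 189 CPM. Their median Mrc1 cell, at 125 CPM, was the highest of that library, against 76.9 CPM in the Runx1-low, Gja5-low cells. In replicate 1 the highest sums of these receptors were in the 11 Runx1-low, Gja5-high cells, at 1579 CPM of Lyve1, 519 CPM of Stab1, 437 CPM of Mrc1 and 295 CPM of Stab2. Runx1-high, Gja5-high cells of replicate 1 (10 cells) had 589 CPM of Lyve1 and 8.18 CPM of Mrc1. Groups of 9 to 13 cells of 1 library carry no error of their own, and these sums are descriptions.

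Of 50 other scavenger and endocytic receptor genes 35 had a count and 20 reached a mean of 10 CPM. The most abundant were Cd93 (528 ± 120 CPM, SD, n = 2 libraries) and Clec14a (400 ± 107 CPM), C-type lectin-like receptors of endothelium. Then came Procr (200 CPM), which encodes the CD201 of the sort, Fcgrt (133 CPM), the neonatal Fc receptor, and Igf2r (130 CPM). With the library block 3 of 30 tested members were lower in Runx1-high cells, against 1.19% of all genes, and 0 were higher, against 0.376%. The 3 were Clec14a by a log2 difference of -1.79 (adjusted p = 3.9e-05), Cd93 by -1.45 (adjusted p = 0.00072) and Colec12, a scavenger receptor with a collagen-like region, by -2.76 (adjusted p = 0.011). DESeq2 with the block called 4 of 35 lower, with Cd36 added, and 1 higher (Fcgr3). Beside these, 2.33% of all genes were lower and 83 of 9620 higher. Without the collagen-rich cells edgeR with the block also called Fcgrt lower, beside 1.11% of all genes. With thinned counts and the block 0 of 15 tested were called, beside 4 of 6793 genes (0.0589%). The median over the 30 was -0.36 and that over all genes was 0.07. In the Gja5 comparison Clec14a (1.94, adjusted p = 0.0064) and Cd93 (1.02, adjusted p = 0.019) were higher and Clec1b, which encodes the lectin receptor CLEC-2, was lower (-2.34, adjusted p = 0.018) with the block, beside 0.798% of all genes higher and 0.0845% lower.

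Of 22 genes of hyaluronan synthesis, binding and turnover, the ligand of Lyve1 and Stab2, 15 had a count. The highest were Tmem2 (382 ± 242 CPM), which encodes a cell surface hyaluronidase, Cd44 (252 ± 55.6 CPM), the hyaluronan receptor used for the sort, Hapln1 (250 ± 10.4 CPM), a link protein, C1qbp (157 CPM) and the lysosomal gene Hexa (118 CPM). Has2, a hyaluronan synthase, was near 0 (0 and 0.787 CPM). With the block Tmem2 was lower in Runx1-high cells by a log2 difference of -2.59 (adjusted p = 2.1e-10) and higher in Gja5-high cells by 1.62 (adjusted p = 0.0011). Vcan was called lower too, but had a count in 8 cells only and fell below the filter on low counts without the collagen-rich cells. So 2 of 12 tested members were lower with Runx1 and 0 higher, with a median of -0.03, against 1.19% and 0.376% of all genes. At the pooled median of Runx1 with the block, edgeR called 1 member higher (Gusb) and 2 lower, beside 35 genes higher and 124 lower of 10665. With thinned counts and the block 1 of 8 (Tmem2) was called, beside 4 of 6793 genes (0.0589%). Cd44 had a log2 difference of -0.04 (adjusted p = 1.00).

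All 35 genes of the clathrin-coated pit and early endosome machinery had a count, led by Ap2s1 (439 ± 325 CPM), Clta (431 ± 18.7 CPM), Ehd4 (376 ± 99.5 CPM), Cltc (209 ± 55.0 CPM) and Vps29 (194 CPM). These encode adaptor, clathrin and sorting proteins that serve receptors of many kinds. None was called in the Runx1 or Gja5 comparison by edgeR with the block, with medians of -0.23 and 0.35 over the 35. With the block edgeR did call Cltb lower at the pooled median of Runx1, beside 124 of 10665 genes lower. It also called Ehd4 higher in the highest against the lowest Gja5 cells, beside 124 of 9514 genes higher. DESeq2 called Cltb lower with Runx1, beside 1.1% of all genes, and Epn2 as well under the block, beside 2.33%. Of 24 lymphatic and sinusoidal endothelial genes 20 had a count. Plvap (740 ± 715 CPM), Cldn5 (675 ± 404 CPM), Cdh5 (548 ± 120 CPM), Kdr (481 ± 125 CPM) and Maf (175 ± 71.7 CPM) led, and Prox1, the transcription factor that defines lymphatic identity, had counts in 1 of 87 cells, while Pdpn had them in 9.

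With the block 5 of 18 tested lymphatic and sinusoidal genes were lower in Runx1-high cells and 0 higher, against 1.19% and 0.376% of all genes, with a median of -1.18. They were Kdr (-1.61, adjusted p = 0.00025), Cldn5 (-1.30, adjusted p = 0.0020), Plvap (-1.16, adjusted p = 0.0079), Cdh5 (-1.20, adjusted p = 0.012) and Maf (-1.48, adjusted p = 0.041). Kdr, Cldn5, Plvap and Cdh5 are general endothelial genes, and Kdr and Cdh5 are also among the 8 endothelial markers. DESeq2 with the block called 8 of 20 lower, adding F8, Lhx6 and Nr2f2, beside 2.33% of all genes. Without the block it called only Lhx6 and Nr2f2, beside 1.1%. With thinned counts and the block 0 of 12 tested were called, beside 4 of 6793 genes (0.0589%). With the block Maf was also not called without the myeloid-marked cells, where the other 4 were, or for the highest against the lowest Runx1 cells, where the other 4 and Rspo3 were. Beside these, 108 of 10521 and 79 of 9892 genes were lower. In the Gja5 comparison Cdh5 (1.12, adjusted p = 0.011) and Plvap (0.99, adjusted p = 0.0079) were higher with the block, beside 0.798% of all genes. With the filter on low counts none of the members of the 4 lists was called by edgeR without the block in either comparison. Without that filter Clec14a, Colec12, Tmem2 and Vcan were called with Runx1, beside 0.507% of all genes, and Clec1b with Gja5, beside 0.379%. Without the myeloid-marked cells none of them was called with Gja5 under the block, beside 23 of 10479 genes.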

How the data were processed

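The data were 2 single-cell libraries of yolk sac PK44 cells. The authors aligned demultiplexed reads to mm10 with HISAT2 2.1.0, counted genes with HTSeq and collapsed reads of one UMI, and the deposited values are raw counts for cells that had passed their filters. The tables themselves cannot show that every duplicate was removed. The tables of cell barcodes were used only to count barcodes, and 1 barcode list was not used here. All 87 cells were used, and doublets were not searched for.

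Levels are CPM of the summed counts per library, with cells given by range. Thinning drew 20000 counts per cell, and thinned cells were split anew by their thinned level of Runx1 or Gja5. Cells of each library were split at the median CPM of Runx1 or Gja5, which gave 4 sums, tested without the split gene by edgeR 4.0.16 in R 4.3.3 (TMM factors, genes kept by filterByExpr, quasi-likelihood test, p adjusted over all genes by Benjamini-Hochberg, threshold 0.05), and by DESeq2 1.42.0 as an alternative. Sums with the same number come from the same library, which pairs them. The deviations from the class means correlated at 0.197 over 10629 genes (Runx1) and 0.202 over 10653 (Gja5), and genes are not independent replicates. The blocked fit was planned as an alternative. The alternatives that combine the block with another change were chosen after seeing the data. The members, gene lists and tests were chosen with earlier results of these data known. Named genes were the 6 receptors, Runx1, Gja5, the 5 genes most like each receptor, the 5 most abundant of each list, and list members called in either comparison. Has2, Prox1 and Pdpn were named after their values were seen. The marker lists held endothelial, macrophage and myeloid, visceral endoderm, mesenchymal and erythroid genes. Visceral endoderm markers summed to 58.1 and 77.5 CPM and erythroid markers to 13.3 and 22.4 CPM in replicates 1 and 2. Of the symbols, 95.6% matched GENCODE M21. The steps were tested on simulated data. Python 3.11.15, pandas 2.3.3, numpy 2.4.6, scipy 1.17.1 and matplotlib 3.10.9 were used.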

Additional observations from a re-analysis of the deposited data

How the results depend on the processing

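The calls of the Runx1 comparison changed with the library block and with thinning. Of the 5 receptors 4 were called with the replicate block alone and also with the block when the 14 highest cells of a library were set against its 14 lowest, at the pooled median, without the collagen-rich cells and without the myeloid-marked cells, 3 with DESeq2 and the block, 0 with thinned cells and the block, and 1 (Stab1) without the low-count filter and without the block. The pairing by library changed no call of a receptor in the Gja5 comparison. All genes called with Runx1 numbered 1 without the block, 166 with it, 140 with DESeq2 and 307 with DESeq2 and the block, 67 without the low-count filter, and 4 in thinned cells with or without the block. They numbered 0 without and 114 with the block for highest against lowest cells, 0 and 159 at the pooled median, 0 and 147 without the collagen-rich cells, and 0 and 142 without the myeloid-marked cells. With Gja5 the count was 0 without the block and 94 with it, 88 and 172 with DESeq2, 50 without the filter, and with the block 9 in thinned cells, 166 for highest against lowest cells, 127 at the pooled median, 104 without the collagen-rich and 23 without the myeloid-marked cells. The cause was not tested.

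The log2 differences of the receptors with Runx1 kept their sign in every setting run and within each library. With Gja5 the sign turned for Lyve1 between highest and lowest cells (0.079), at the pooled median (0.28; with the block 0.36) and within replicate 1 (1.05), the range within single libraries being -1.52 to 1.05. It turned for Stab2 at the pooled median (0.088; with the block 0.63) and within replicate 1 (1.18; range -2.97 to 1.18), and for Mrc1 between highest and lowest cells (0.064), at the pooled median (0.39; with the block 0.49) and within replicate 1 (1.31; range -1.82 to 1.31).

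As means over cells and in thinned cells Lyve1 was at 1066 and 1044 CPM and Mrc1 at 207 and 209 CPM, since deep cells then weigh less. In thinned cells the log2 ratio of the libraries was 0.24 for Stab1, -0.26 for Mrc1, -0.022 for Lyve1 and 2.03 for Scarb1. The mean rho of Stab1 with Runx1 was -0.41 by Pearson of log2(CPM + 1) and -0.48 over the 87 cells pooled, and that of Scarb1 with Runx1 was -0.11 in thinned cells, -0.055 without the myeloid-marked cells and -0.13 pooled. Pooling raised rho with Gja5 for all 5 receptors, to 0.34 for Stab1, 0.32 for Stab2 and Scarb1, 0.31 for Mrc1 and 0.080 for Lyve1. Pooled values also hold the difference between the libraries, as the sums of Gja5 and of all 5 receptors were higher in replicate 2. Its part was not tested. Scarb1 with Gja5 was at 0.020 in thinned cells. The limits are that 2 libraries carry each test, and that Scarb1 and, in replicate 1, Stab2 rest on few cells. In replicate 1 the 3 highest cells also held 44.7 to 48.3% of the counts of Lyve1, Stab1 and Mrc1.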
